A study of Arabidopsis with 24 samples.

Results

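PIF4 and PIF7 are basic helix-loop-helix transcription factors that bind G-box elements and promote elongation growth. In white light (WL) the photoreceptor phyB keeps both in check, and a low ratio of red to far-red light (low R:FR), the signal of neighbouring plants, releases them to induce auxin synthesis genes, auxin response genes and cell-wall-loosening enzymes. What loss of both factors does to the transcriptome before any shade signal is the question of the comparison described here, which sets the double mutant pif47 against the wild type Col-0 in WL. The comparison rests on 6 RNA-seq libraries, 3 for each genotype, and takes in the genes with a mean of at least 1 FPKM over these libraries. Of the 32833 genes of the deposited values, 19209 met this rule. FPKM relate fragment numbers to transcript length and to the mapped fragments of the library.

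Poly(A) RNA came from whole seedlings that had spent 6 days in WL and then a further 6 h either in WL or in low R:FR. Besides Col-0 and pif47, which is mutated in PIF4 and PIF7, the study used dvl1-1D, a line that overexpresses the peptide gene RTFL18, and bsk36, mutated in the kinase genes BSK3 and BSK6. With both light conditions this made 8 groups with 3 libraries apiece. All mutants are in the Col-0 background. The alleles combined in pif47 are not given in the sources used here, and nothing says whether the replicates were separate cultures, so the p-values below measure only the spread between these samples.

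The genotypes differed slightly in the make-up of their libraries. FPKM totals lay between 791804 and 801109 in Col-0 and between 774979 and 781585 in pif47, and the top 10 genes held 9.92% to 10.4% of the total in Col-0 and 9.59% to 9.86% in pif47. Neither range overlaps, and the part of this in the results was not tested beyond the scalings given below. The steps between low values gave relative depths from 1.00 to 1.125, with Col-0 replicate 1 set to 1. The number of reads is unknown, so no counting error was computed. Pearson's r of log2 values lay between 0.960 and 0.966 within genotypes and between 0.954 and 0.959 across them. Differences were tested with limma on log2(FPKM + 0.1) in 1 model of all 24 libraries, which understates the change of genes with low values. A gene is described as called, or as having risen or fallen, when its adjusted p (Benjamini-Hochberg over all 19209 genes) was under 0.05. Every fold change is that of pif47 against Col-0 in WL on the log2 scale with its standard error (SE), unless another contrast is named.

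The targeted genes matched the labels. PIF7 (AT5G61270) was at 9.83, 13.5 and 11.4 FPKM in Col-0 and at 0.77, 0.53 and 1.34 FPKM in pif47, a log2 fold change of -3.64 (SE 0.23, adjusted p = 2.44e-09). PIF4 (AT2G43010) was at 7.46, 7.21 and 6.68 FPKM in Col-0 and at 1.64, 2.34 and 2.3 FPKM in pif47, a log2 fold change of -1.73 (SE 0.14, adjusted p = 1.08e-07). Transcripts of both loci were thus still measured in the mutant, those of PIF4 at the higher level. No other measured member of the family was called. PIF1, which restrains seed germination in the dark, was at 10.7, 15.4 and 12.8 FPKM in Col-0 and at 15.1, 12.96 and 15.1 FPKM in pif47 (log2 fold change 0.16, adjusted p = 0.4). PIF3 was at 4.57, 4.72 and 5.39 FPKM in Col-0 and at 5.2, 5.51 and 6.05 FPKM in pif47 (log2 fold change 0.19, adjusted p = 0.527). PIF5, the closest relative of PIF4, was at 19.5, 25.4 and 23.03 FPKM in Col-0 and at 17.5, 18.6 and 21.9 FPKM in pif47 (log2 fold change -0.23, adjusted p = 0.239). The photoreceptor genes had log2 fold changes of 0.11 for PHYA, 0.06 for PHYB and -0.02 for CRY1, and none of these was called by limma.

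PAO2 (AT2G43020), the gene next to PIF4, encodes a polyamine oxidase and rose. It was at 9.83, 11.5 and 9.96 FPKM in Col-0 and at 27.4, 29.4 and 26.99 FPKM in pif47, a log2 fold change of 1.42 (SE 0.09, adjusted p = 2.44e-09), while dvl1-1D held 10.6 to 10.9 FPKM and bsk36 11.2 to 13.9 FPKM. It was the single called gene among the 24 measured members within 20 annotated genes on either side of PIF4. Among the 28 members around PIF7, 2 rose. Over all members 3.87% were called, so neither count is large beside that share. These were AT5G61290, which is annotated as a flavin-containing monooxygenase and stood at 3.71, 4.74 and 3.18 FPKM in Col-0 and at 6.96, 7.09 and 6.84 FPKM in pif47, and the clock gene TOC1, described below. The call of AT5G61290 (log2 fold change 0.85, adjusted p = 0.0339) was lost without Col-0 replicate 1 or 3 or pif47 replicate 1, 2 or 3 (adjusted p up to 0.101).

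Across the 19209 genes, 744 were called (3.87%), of which 503 were higher in pif47 (2.62%) and 241 lower (1.25%). The WL counts of every gene list in this text are to be read beside these shares. Most changes were small. A fold of at least 2 was reached by 88 of the called genes (0.458%), 64 of them higher (0.333%) and 24 lower (0.125%). In all 88 the 3 pif47 libraries lay outside the range of the 3 Col-0 libraries, which was true of 23.1% of all members (16.2% with pif47 higher and 6.91% with pif47 lower). The median log2 fold change of all members was 0.06, and the share of higher calls moved with the scaling. It was 67.6% as reported, 42.8% after median-of-ratios scaling and 51.8% after quantile normalization. The counts of all calls also rested on single libraries, with 169 higher genes without Col-0 replicate 1, 205 and 151 without pif47 replicates 2 and 3, and 153, 129 and 134 lower genes without Col-0 replicate 2 or pif47 replicates 2 or 3. The counts past 2-fold moved less, between 46 and 78 higher genes and between 18 and 29 lower ones.

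**Figure D1:**
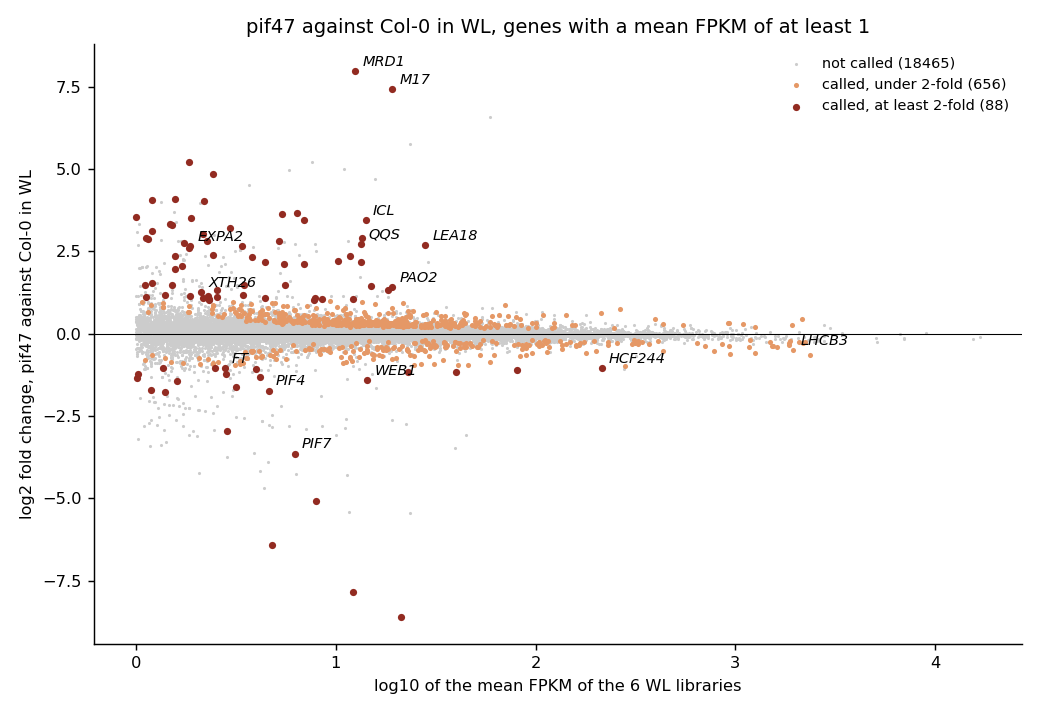
Log2 fold change of pif47 against Col-0 in WL (y axis) by the log10 of the mean FPKM of the 6 WL libraries (x axis) for the 19209 members, with one point for each gene and the called genes in colour. Most called genes lie close to the line at 0, and the 64 genes that rose at least 2-fold outnumber the 24 that fell as far.

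A first group of genes that fell comprises light and auxin genes. PKS4, which encodes a phytochrome kinase substrate protein that acts in phototropin and phytochrome signaling, was at 3.12, 3.16 and 3.23 FPKM in Col-0 and at 2.31, 1.6 and 1.13 FPKM in pif47, a log2 fold change of -0.93 (SE 0.16, adjusted p = 0.00227). BEE1, a growth-promoting bHLH gene of the brassinosteroid response, was at 3.38, 4.44 and 4.59 FPKM in Col-0 and at 1.78, 1.91 and 2.61 FPKM in pif47, a log2 fold change of -0.95 (SE 0.18, adjusted p = 0.00636). The auxin-induced repressor gene IAA29 was at 1.88, 2.61 and 1.42 FPKM in Col-0 and at 0.78, 1.24 and 1.08 FPKM in pif47, a log2 fold change of -0.85 (SE 0.21, adjusted p = 0.0253). None of these genes overlapped between the genotypes, which was true of 240 of the 241 genes called lower, and in each the level in Col-0 was already low. The Aux/IAA repressors and their relatives, a list that also takes in the auxin response factors ARF5, ARF7 and ARF19, had 3 of 25 measured members lower and 0 higher, with a median log2 fold change of -0.06. The 3 were IAA29, IAA32 and IAA18. IAA32 was at 1.7, 2.24 and 1.64 FPKM in Col-0 and at 1.06, 0.56 and 0.96 FPKM in pif47, and its log2 fold change was -1.06 (adjusted p = 0.0401). On leaving out single libraries, the call of IAA29 was lost without Col-0 replicate 1 or 2 or pif47 replicate 1 or 3 (adjusted p up to 0.103) and that of IAA32 without Col-0 replicate 1, 2 or 3 or pif47 replicate 2 or 3 (adjusted p up to 0.177). IAA18 was at 15.4, 16.4 and 15.2 FPKM in Col-0 and at 12.6, 13.8 and 14.1 FPKM in pif47 (log2 fold change -0.21, adjusted p = 0.0427), and its call was lost without Col-0 replicate 1 or 2 or pif47 replicate 1, 2 or 3 (adjusted p up to 0.14). None of the 25 was called with the 6 libraries alone.

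The SAUR genes, small auxin-induced transcripts whose products activate plasma membrane proton pumps and so favour cell expansion, had 5 of 50 members lower and 0 higher. Their median log2 fold change was -0.22, against 0.06 for all members. SAUR20 (AT5G18020) was at 6.62, 6.29 and 8.47 FPKM in Col-0 and at 3.46, 4.51 and 4.43 FPKM in pif47, a log2 fold change of -0.77 (SE 0.13, adjusted p = 0.00138). The SAUR gene AT4G34770 was at 1.58, 2.12 and 3.49 FPKM in Col-0 and at 0.59, 0.68 and 1.17 FPKM in pif47, a log2 fold change of -1.43 (SE 0.29, adjusted p = 0.00887). The highest level among the 5 belonged to AT1G29430, at 18.5, 20.7 and 23.3 FPKM in Col-0 and at 16.02, 14.5 and 13.5 FPKM in pif47, with its neighbour SAUR63 (AT1G29440) at 17.95, 19.1 and 17.99 FPKM in Col-0 and at 14.8, 12.7 and 14.1 FPKM in pif47. SAUR20 and SAUR23 belong to a cluster of nearly identical copies, so reads may have been split between them and their values are uncertain. SAUR23 was at 1.46, 1.36 and 1.44 FPKM in Col-0 and at 1.1, 0.73 and 0.58 FPKM in pif47 (log2 fold change -0.79, adjusted p = 0.0316), and its call was lost without Col-0 replicate 1, 2 or 3 or pif47 replicate 2 or 3 (adjusted p up to 0.164) and with a pseudocount of 0.5 or 1. With the 6 libraries alone 0 of the 50 SAUR genes were called, and after quantile normalization 8 were lower. The calls of AT1G29430 and SAUR63 were lost without pif47 replicate 3 (adjusted p up to 0.066) and without Col-0 replicate 1 or 2 or pif47 replicate 2 or 3 (adjusted p up to 0.106). Several other genes of growth and hormone pathways fell as well and were chosen after their values were seen. GASA7 (AT2G14900), a gibberellin-regulated peptide gene, was at 13.4, 15.2 and 13.8 FPKM in Col-0 and at 8.1, 6.74 and 8.09 FPKM in pif47, a log2 fold change of -0.88 (SE 0.12, adjusted p = 1.54e-04). The EXORDIUM-like gene EXL1 (AT1G35140) was at 4.31, 5.58 and 6.49 FPKM in Col-0 and at 2.25, 2.65 and 2.62 FPKM in pif47, a log2 fold change of -1.08 (SE 0.19, adjusted p = 0.00228). ATHB-52, which encodes a homeodomain-leucine zipper protein, was at 3.1, 3.11 and 3.35 FPKM in Col-0 and at 1.77, 1.48 and 1.74 FPKM in pif47, a log2 fold change of -0.90 (SE 0.18, adjusted p = 0.00756).

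RTFL17 was the single called gene of the RTFL/DVL family of small peptides to which RTFL18 belongs. It was at 26.3, 27.8 and 31.6 FPKM in Col-0 and at 16.6, 15.9 and 22.7 FPKM in pif47, a log2 fold change of -0.65 (SE 0.15, adjusted p = 0.018), and the call was lost without Col-0 replicate 3 or pif47 replicate 1 or 2 (adjusted p up to 0.092). RTFL16 was at 54.1, 53.5 and 62.5 FPKM in Col-0 and at 39.9, 41.6 and 48.2 FPKM in pif47, with log2 fold change -0.39 and adjusted p = 0.148. RTFL18 was not among the 10 members of the family and stood at 0.46, 0.7 and 0 FPKM in Col-0 and at 0.3, 1.51 and 0.44 FPKM in pif47.

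**Figure D2:**
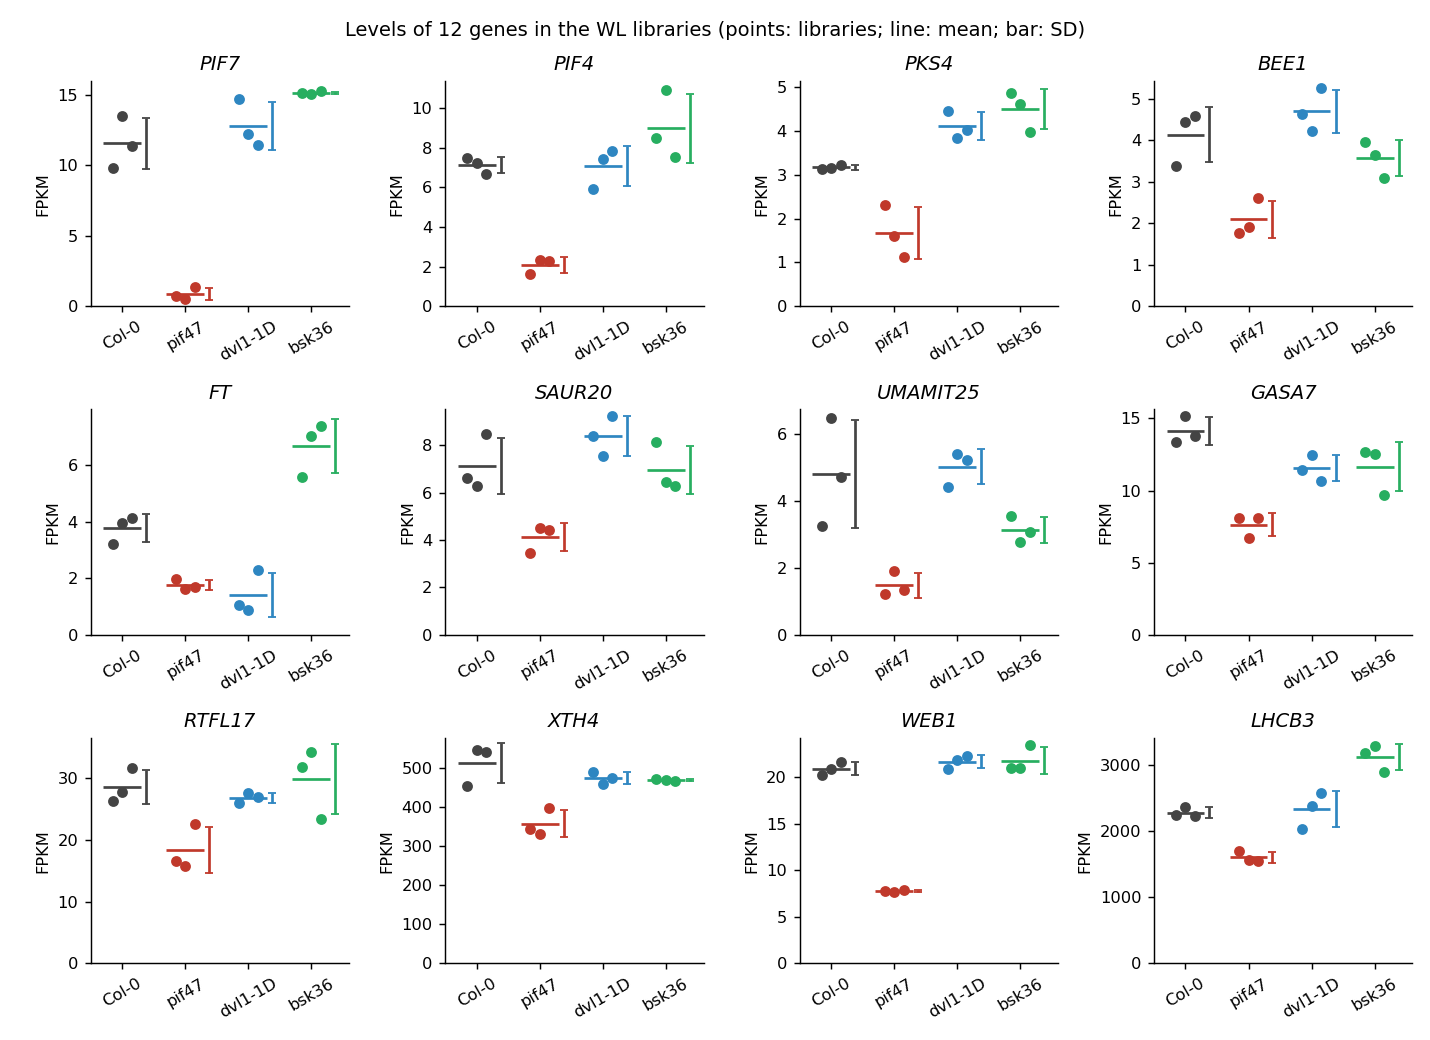
FPKM (y axes, from 0) of 12 genes in the 12 WL libraries of Col-0, pif47, dvl1-1D and bsk36 (x axes); points are libraries, horizontal lines are means and vertical bars are the SD (n = 3). The 12 genes were picked from those named in the text. The 3 pif47 libraries lie below all 9 others for every gene shown except FT, where they overlap with dvl1-1D. Of all 241 genes called lower, pif47 stood apart from the other 9 WL libraries in 102 and Col-0 in 69.

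Most of the classical shade marker genes were not called in WL. Of 18 measured members of a list of shade-induced genes, 2 fell (IAA29 and PKS4, neither of them called with the 6 libraries alone) and 0 rose. Over all members, 1.25% fell and 2.62% rose. The median log2 fold change of the list was -0.10. ATHB2, the homeodomain-leucine zipper gene most often used as a shade marker, was at 3.51, 4.39 and 4.85 FPKM in Col-0 and at 3.39, 4.06 and 4.59 FPKM in pif47, a log2 fold change of -0.08 (adjusted p = 0.768). HFR1, a bHLH gene that restrains PIFs, was at 3.06, 4.68 and 3.38 FPKM in Col-0 and at 3.79, 2.97 and 3.93 FPKM in pif47 (log2 fold change -0.04, adjusted p = 0.915). YUC8, an auxin synthesis gene, was at 1.59, 2.16 and 1.46 FPKM in Col-0 and at 1.11, 1.12 and 1.39 FPKM in pif47 (log2 fold change -0.48, adjusted p = 0.147). The genotypes overlapped for ATHB2 and HFR1, while for YUC8 every pif47 library lay below every Col-0 library without reaching the threshold. PIL1 and YUC5 did not reach the mean of 1 FPKM, with PIL1 at 0.4, 0.66 and 0.44 FPKM in Col-0 and at 0.36, 0.44 and 0.46 FPKM in pif47. In the low R:FR libraries, 17 of the same 18 genes were called lower in pif47 than in Col-0, beside 6.81% of all members. There ATHB2 had a log2 fold change of -0.96, HFR1 of -0.69 and YUC8 of -2.97, and the interaction of genotype and light, the difference between the contrasts of the light conditions, was called for 12 of the 18 (2.55% of all members).

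The cell wall genes moved in both directions. The XTH family, xyloglucan endotransglucosylases that cut and rejoin the hemicellulose of the wall, had 6 members lower and 4 higher of 26. XTH4, the member with the highest level, was at 454, 544 and 539.61 FPKM in Col-0 and at 344, 329 and 395 FPKM in pif47, a log2 fold change of -0.52 (SE 0.10, adjusted p = 0.00737). XTH7 was at 241, 264 and 272 FPKM in Col-0 and at 211, 200.01 and 202 FPKM in pif47 (log2 fold change -0.34, SE 0.07, adjusted p = 0.00897), and XTH23 (AT4G25810) was at 4.91, 5.7 and 5.31 FPKM in Col-0 and at 3.12, 3.43 and 3.2 FPKM in pif47 (log2 fold change -0.69, SE 0.14, adjusted p = 0.0106). For XTH7 the other mutants were below Col-0 as well, at 199 to 235 FPKM in dvl1-1D and 158 to 178 FPKM in bsk36. In the opposite direction, XTH26 rose from 1.14, 1.13 and 1.36 FPKM in Col-0 to 3.32, 2.85 and 2.86 FPKM in pif47, a log2 fold change of 1.25 (SE 0.23, adjusted p = 0.00406). XTH24 was at 35.2, 55.7 and 60.1 FPKM in Col-0 and at 94.6, 94.4 and 82.3 FPKM in pif47 (log2 fold change 0.88, adjusted p = 0.0208), a call that was lost without Col-0 replicate 1 or pif47 replicate 1 or 2 (adjusted p up to 0.113). Both other mutants were also above Col-0 for XTH24, at 138 to 144 FPKM in dvl1-1D and 98.65 to 124 FPKM in bsk36. Under median-of-ratios scaling 2 rather than 4 members were higher, and with the 6 libraries alone 1 was higher and 2 were lower.

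Expansins, which loosen the wall without cutting it, had 4 members lower and 1 higher of 19. EXPA1, the expansin with the highest level, was at 168, 192 and 192 FPKM in Col-0 and at 142, 141 and 153 FPKM in pif47, a log2 fold change of -0.34 (SE 0.07, adjusted p = 0.00938). EXPA5 was at 24.6, 28.9 and 25.7 FPKM in Col-0 and at 19.3, 18.6 and 19.5 FPKM in pif47, a log2 fold change of -0.46 (SE 0.10, adjusted p = 0.0104). EXPA11 and EXPA3 completed the 4 with log2 fold changes of -0.49 and -0.28, and their calls were lost without Col-0 replicate 1 or 2 or pif47 replicate 1 or 2 (adjusted p up to 0.109) and without Col-0 replicate 2 or pif47 replicate 2 or 3 (adjusted p up to 0.0746). For EXPA3 both other mutants were also below Col-0 (49.65 to 52.1 FPKM), at 40.5 to 43.8 FPKM in dvl1-1D and 41.96 to 47.5 FPKM in bsk36. EXPA5 was below Col-0 in dvl1-1D (21.3 to 23.3 FPKM). EXPA11 was below Col-0 (19.1 to 22 FPKM) in bsk36 (13.9 to 16.9 FPKM). The remaining ranges of EXPA5 and EXPA11, and both of EXPA1, overlapped with Col-0. With the 6 libraries alone 1 expansin gene was lower and 1 higher. EXPA2, an expansin gene known from germinating seeds, rose. It was at 0.45, 0.75 and 0.22 FPKM in Col-0 and at 3.83, 2.95 and 3.02 FPKM in pif47, a log2 fold change of 2.66 (SE 0.42, adjusted p = 8.90e-04). Its mean in Col-0 was 0.47 FPKM, so it passed the filter of 1 FPKM through pif47 alone and had to differ to be a member.

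Transcripts of the light-harvesting chlorophyll a/b-binding proteins, the antenna of the photosystems, fell in pif47 for many of the genes. Of 20 members, 12 fell and 0 rose, and the median log2 fold change was -0.28. LHCB1.1 was at 2803, 2932 and 2848 FPKM in Col-0 and at 2059, 1803 and 1680 FPKM in pif47, a log2 fold change of -0.64 (SE 0.10, adjusted p = 0.00122). LHCB3 was at 2250, 2373 and 2228 FPKM in Col-0 and at 1694, 1568 and 1549 FPKM in pif47 (log2 fold change -0.51, SE 0.08, adjusted p = 5.32e-04), and LHCB2.1 was at 1415, 1602 and 1493 FPKM in Col-0 and at 1056, 993 and 948 FPKM in pif47 (log2 fold change -0.59, SE 0.09, adjusted p = 5.41e-04). LHCB1 and LHCB2 genes are near-identical copies, and the split of reads between them is uncertain. The sum of all 20 genes was 48886 to 51804 FPKM in Col-0 and 39602 to 42387 FPKM in pif47, with no overlap. It was 45280 to 51028 FPKM in dvl1-1D and 55022 to 62755 FPKM in bsk36. Fewer cells of a type and less RNA per cell cannot be told apart in whole seedlings. In low R:FR the median of the 20 genes was -0.04 and 3 were lower, and the interaction was called for 5 of them, among them LHCB3 (0.55, adjusted p = 0.00674) and LHCB6 (0.40, adjusted p = 0.016). The number of members that fell was 11 after median-of-ratios scaling, 8 after quantile normalization and 5 with the 6 libraries alone.

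Around the antenna genes, HEMA1, which encodes the enzyme at the entry to tetrapyrrole synthesis, was at 211, 218 and 202 FPKM in Col-0 and at 183, 181 and 175 FPKM in pif47, a log2 fold change of -0.23 (adjusted p = 0.0151). CAO, the chlorophyll b synthesis gene, was at 103, 119 and 116 FPKM in Col-0 and at 94.2, 85.5 and 90.4 FPKM in pif47, a log2 fold change of -0.32 (adjusted p = 0.0238). These were the 2 of 9 genes of chlorophyll synthesis and its GLK regulators that fell, with 0 that rose. After quantile normalization, and with the 6 libraries alone, 0 of the 9 were called. The call of HEMA1 was lost without pif47 replicate 3 (adjusted p up to 0.074) and that of CAO without Col-0 replicate 2 or 3 or pif47 replicate 2 or 3 (adjusted p up to 0.0997). GLK1 was at 75.5, 78.4 and 72.7 FPKM in Col-0 and at 76.04, 73.6 and 66.9 FPKM in pif47 and GLK2 at 98.8, 103 and 99.8 FPKM in Col-0 and at 87.6, 79.8 and 86.6 FPKM in pif47, and neither was called. None of the 55 measured chloroplast-encoded genes was called by limma in either direction (5 had an unadjusted p under 0.05), although poly(A) libraries sample such transcripts poorly.

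Some genes of the circadian clock that peak around dusk were slightly higher in pif47. TOC1 was at 32.6, 33.6 and 34.9 FPKM in Col-0 and at 39.7, 41.4 and 45.7 FPKM in pif47, a log2 fold change of 0.32 (SE 0.06, adjusted p = 0.00196). PRR5 was at 11.6, 9.95 and 10.2 FPKM in Col-0 and at 14.5, 13.04 and 16.2 FPKM in pif47 (log2 fold change 0.46, SE 0.09, adjusted p = 0.00768), and GI, which links the clock to flowering, was at 7.46, 7.38 and 6.9 FPKM in Col-0 and at 9.3, 8.65 and 12.7 FPKM in pif47 (log2 fold change 0.47, SE 0.11, adjusted p = 0.018). These 3 of 11 clock genes rose and 0 fell, a count that stood under median-of-ratios scaling and quantile normalization. In dvl1-1D all 3 were above Col-0 as well, TOC1 at 37.8 to 39.2, PRR5 at 11.8 to 12.9 and GI at 9.08 to 9.77 FPKM. In bsk36 PRR5 was above Col-0 at 11.63 to 13.8 FPKM, against at most 11.56 FPKM in Col-0. There TOC1, at 33.1 to 35.8 FPKM, and GI, at 7.05 to 8.95 FPKM, overlapped with Col-0. The morning genes CCA1 and LHY had log2 fold changes of -0.38 (adjusted p = 0.0665) and -0.24 (0.305). FKF1, the blue light receptor of the photoperiod pathway, was at 7.65, 6.86 and 6.3 FPKM in Col-0 and at 9.56, 8.46 and 10.5 FPKM in pif47, a log2 fold change of 0.45 (adjusted p = 0.0211), which was no longer called after median-of-ratios scaling or quantile normalization. In low R:FR the same contrast gave log2 fold changes of 0.02 for TOC1, -0.15 for PRR5 and 0.03 for GI, none of them called. The call of PRR5 was lost without pif47 replicate 3 (adjusted p up to 0.0559) and that of GI without pif47 replicate 3 (adjusted p up to 0.0946), and no clock gene was called with the 6 libraries alone.

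The flowering signal gene FT, a known PIF target, fell. It was at 3.21, 3.97 and 4.15 FPKM in Col-0 and at 1.98, 1.64 and 1.68 FPKM in pif47, a log2 fold change of -1.05 (SE 0.27, adjusted p = 0.0346), but the call was lost without any 1 of the 6 libraries (adjusted p up to 0.117), and dvl1-1D was as low at 0.87 to 2.3 FPKM. Its activator CO was at 2.02, 1.89 and 2.23 FPKM in Col-0 and at 1.29, 1.21 and 1.69 FPKM in pif47 (log2 fold change -0.53, adjusted p = 0.0954), and the downstream floral integrator SOC1 was at 6.96, 8.29 and 8.59 FPKM in Col-0 and at 5.57, 4.96 and 6.44 FPKM in pif47 (log2 fold change -0.49, adjusted p = 0.0786). Both were lower in every pif47 library than in any Col-0 library without reaching the threshold. CDF5, which encodes a repressor of CO and FT, was at 2.18, 2.92 and 2.65 FPKM in Col-0 and at 1.09, 2.06 and 1.44 FPKM in pif47, a log2 fold change of -0.75 (adjusted p = 0.0333), lost without Col-0 replicate 2 or 3 or pif47 replicate 1 or 3 (adjusted p up to 0.127). FLP1, a gene for a flowering-promoting factor 1-like protein chosen after its values were seen, was at 3.47, 3.8 and 2.77 FPKM in Col-0 and at 1.81, 1.64 and 1.86 FPKM in pif47, a log2 fold change of -0.87 (adjusted p = 0.0204), lost without Col-0 replicate 1 or 2 or pif47 replicate 2 or 3 (adjusted p up to 0.0777). The cytokinin-induced type-A response regulators had 2 of 9 members lower and 0 higher. ARR9 was at 19.6, 23.1 and 23.8 FPKM in Col-0 and at 15.6, 16.6 and 18.2 FPKM in pif47 (log2 fold change -0.39, SE 0.08, adjusted p = 0.0109), and ARR7 was at 13.6, 13.6 and 16.9 FPKM in Col-0 and at 7.95, 10.1 and 8.76 FPKM in pif47 (log2 fold change -0.71, adjusted p = 0.0158), the latter lost without Col-0 replicate 3 or pif47 replicate 1 or 3 (adjusted p up to 0.0614).

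The largest falls beyond PIF4 and PIF7 came from genes of many kinds. WEB1 (AT2G26570), which encodes a coiled-coil protein needed for chloroplast movement under blue light, had the smallest adjusted p of all genes that fell. It was at 20.2, 20.9 and 21.7 FPKM in Col-0 and at 7.73, 7.68 and 7.92 FPKM in pif47, a log2 fold change of -1.42 (SE 0.07, adjusted p = 9.42e-11). The libraries of dvl1-1D held 20.9 to 22.3 FPKM and those of bsk36 20.97 to 23.5 FPKM, so that of the 12 WL libraries only those of pif47 were low, and in low R:FR the log2 fold change was -1.27. AT3G05945, annotated as a long non-coding RNA, was at 12.3, 16.4 and 17.1 FPKM in Col-0 and at 0, 0.85 and 0.83 FPKM in pif47, a log2 fold change of -5.09 (SE 0.50, adjusted p = 2.38e-06), with 15.3 to 16.7 FPKM in dvl1-1D and 17.2 to 19.6 FPKM in bsk36. UMAMIT25, which encodes an amino acid transporter of the plant drug/metabolite exporter family, was at 3.25, 6.48 and 4.73 FPKM in Col-0 and at 1.21, 1.9 and 1.33 FPKM in pif47 (log2 fold change -1.61, SE 0.24, adjusted p = 5.17e-04), and the 3 pif47 libraries lay below the other 9 WL libraries.

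Most other large falls belonged to genes with low or erratic values. The mitochondrial 5S rRNA gene ATMG01380 was at 27.7, 29.5 and 69.5 FPKM in Col-0 and was listed at 0 in every WL library of pif47, dvl1-1D and bsk36. Its log2 fold change was -8.59 with a wide SE of 1.25 (adjusted p = 3.91e-04 by limma). In low R:FR this gene was at 27.75, 42.3 and 28.3 FPKM in Col-0 and again listed at 0 in pif47. AT2G08330, annotated as an antisense RNA, was at 35.8, 20.4 and 16.9 FPKM in Col-0 and listed at 0 in pif47 and bsk36 in WL. In low R:FR it was listed at 0 in Col-0 and stood at 0, 2.83 and 14.1 FPKM in pif47. AT5G01017 was at 15.3, 9.49 and 4.02 FPKM in Col-0 and listed at 0 in pif47 in WL, with 10.2, 7.97 and 10.97 FPKM in pif47 in low R:FR. Because strand use in counting is not stated, the antisense RNA cannot be told apart from the gene it overlaps. The non-coding RNA AT4G04223 was at 4.4, 8.9 and 4.71 FPKM in Col-0 and at 1.7, 1.83 and 3.51 FPKM in pif47 (log2 fold change -1.32, SE 0.25, adjusted p = 0.0056) and at 35.2 to 44.3 FPKM in dvl1-1D. The remaining 5 of the 15 largest falls were AT5G08760, AT4G38310, the CLE peptide gene CLE14, the cysteine protease gene CEP1 and AT3G02670. Their log2 fold changes were -2.95, -1.78, -1.70, -1.34 and -1.23, and all were under 8 FPKM in every WL library of Col-0. Each call was lost on leaving out a library. That of AT5G08760 was lost without Col-0 replicate 1 or 3 or pif47 replicate 1 (adjusted p up to 0.0747), and that of AT4G38310 without Col-0 replicate 1, 2 or 3 or pif47 replicate 1 or 3 (adjusted p up to 0.147). That of CLE14 was lost without Col-0 replicate 1, 2 or 3 or pif47 replicate 1 or 2 (adjusted p up to 0.198), that of CEP1 without pif47 replicate 2 (adjusted p up to 0.0628), and that of AT3G02670 without Col-0 replicate 2 or 3 or pif47 replicate 1 or 3 (adjusted p up to 0.158).

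Genes of seed maturation and desiccation tolerance were among the largest rises in pif47. M17 (AT2G41260), a late embryogenesis transcript, was at 0, 0.71 and 0 FPKM in Col-0 and at 47.3, 49.5 and 17.5 FPKM in pif47, a log2 fold change of 7.43 (SE 0.70, adjusted p = 1.32e-06). LEA18, a late embryogenesis abundant (LEA) protein gene, was at 4.42, 9.21 and 9.56 FPKM in Col-0 and at 49.9, 56.8 and 37.99 FPKM in pif47 (log2 fold change 2.69, SE 0.30, adjusted p = 1.26e-05), and LEA7 was at 0.3, 1.32 and 0.81 FPKM in Col-0 and at 10.1, 10.4 and 9.39 FPKM in pif47 (log2 fold change 3.64, SE 0.47, adjusted p = 8.88e-05). LEA proteins accumulate in drying embryos, where they protect other proteins and membranes, and their transcripts decline after germination. PER1, the seed peroxiredoxin gene, was at 0.05, 0.29 and 0.16 FPKM in Col-0 and at 5.46, 4.92 and 2.3 FPKM in pif47 (log2 fold change 4.03, SE 0.44, adjusted p = 8.76e-06), and the vicilin-like gene AT2G28490 was at 0, 0.16 and 0 FPKM in Col-0 and at 2.71, 2.98 and 1.32 FPKM in pif47 (log2 fold change 4.07, SE 0.48, adjusted p = 2.44e-05). Libraries that do not overlap were a condition for naming M17, LEA7, PER1 and AT2G28490 among the 10 largest rises. Those of LEA18 did not overlap either, but this held for 500 of the 503 genes called higher. LEA4-5, at 0.87, 1.36 and 1.44 FPKM in Col-0 and at 5.67, 7.11 and 6.39 FPKM in pif47, and the LEA gene AT4G21020, at 0.47, 0.64 and 0.36 FPKM in Col-0 and at 4.56, 7.29 and 4.33 FPKM in pif47, showed the same separation with log2 fold changes of 2.32 and 3.21. Among the 10 largest rises were also the LEA gene AT5G44310 (4.08) and the dehydrin gene AT4G39130 (3.54). The call of the dehydrin gene was lost without Col-0 replicate 1 or 3 or pif47 replicate 1 or 2 (adjusted p up to 0.0855).

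The log2 fold changes of these seed genes depend on the low values of Col-0 and on the pseudocount. Of 65 members whose descriptions in the deposited values name an LEA protein, dehydrin, seed storage protein or oleosin, 13 rose and 0 fell, all 13 by at least 2-fold. The list was assembled after the values were seen, and its median log2 fold change was 0.19. For 8 of the 13 the mean in Col-0 was under 1 FPKM, so they passed the filter through pif47 alone, and of the 64 genes that rose at least 2-fold this held for 31. Of the 24 that fell as far, 12 had a mean under 1 FPKM in pif47. Such genes had to differ to be among the members. Over all 152 genes with such descriptions, whatever their level, the sum was 1928 to 2272 FPKM in Col-0 and 2098 to 2508 FPKM in pif47, and these ranges overlap. The strict seed markers were far lower. Of 7 such genes, only EM6 was measured above the filter, at 0.54, 0.97 and 0.36 FPKM in Col-0 and at 2.59, 3.46 and 2.3 FPKM in pif47 (log2 fold change 2.06, adjusted p = 0.0291). Its call was lost without Col-0 replicate 1 or 3 or pif47 replicate 1, 2 or 3 (adjusted p up to 0.107). The sum of the 7 was 0.43 to 1.1 FPKM in Col-0 and 2.86 to 4.55 FPKM in pif47. The cruciferin gene CRA1 was at 0.03, 0.03 and 0 FPKM in Col-0 and at 0.65, 0.63 and 0.26 FPKM in pif47, and the albumin gene SESA1 and the oleosin gene OLEO1 were listed at 0 in all 6 libraries. The part of remaining seed material in these differences was not tested.

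**Figure D3:**
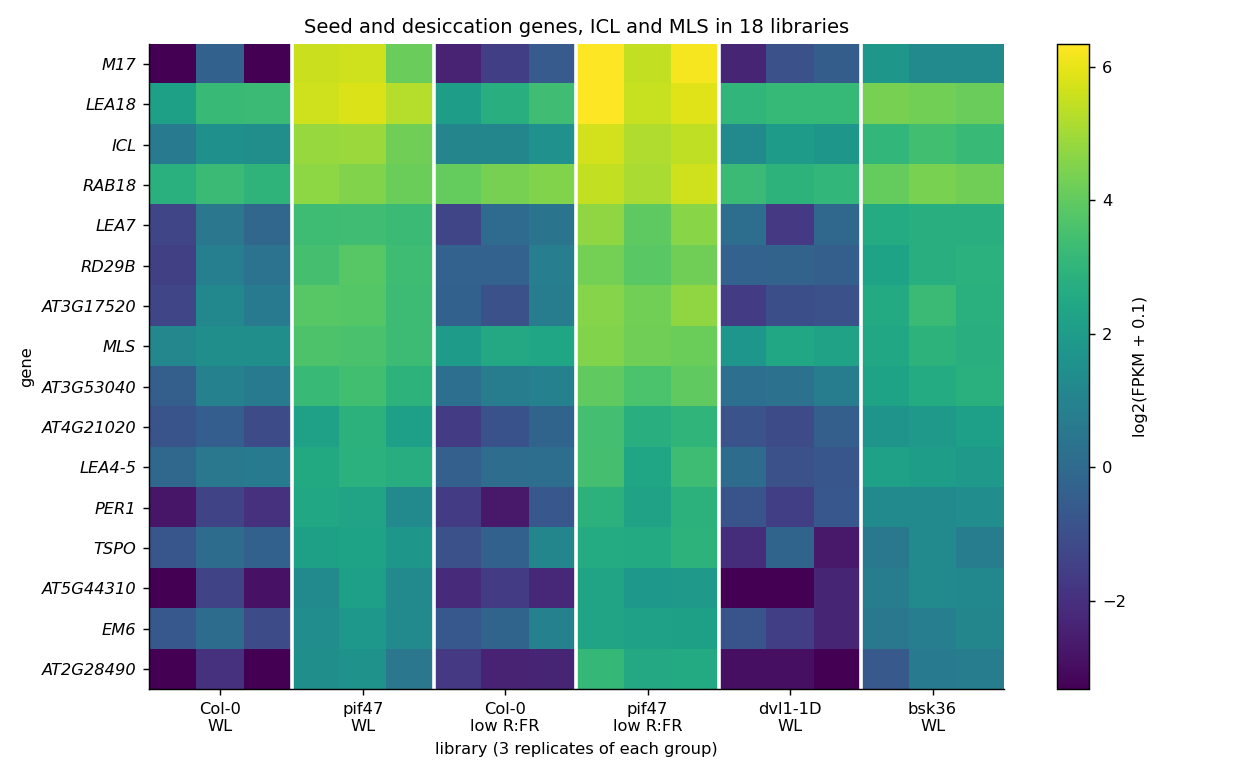
Log2(FPKM + 0.1) as colour for 14 seed and desiccation genes, ICL and MLS (rows) in 18 libraries (columns, 3 for each group). Both pif47 groups are brightest, bsk36 lies between pif47 and Col-0 for most genes, and dvl1-1D is about as dark as Col-0.

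Genes of storage lipid use and of the abscisic acid (ABA) response rose beside them, both lists having been drawn up after the values were seen. ICL, isocitrate lyase of the glyoxylate cycle, with which germinating seeds turn fatty acids into sugar, was at 1.51, 2.78 and 2.67 FPKM in Col-0 and at 28.9, 29.6 and 18.96 FPKM in pif47, a log2 fold change of 3.44 (SE 0.33, adjusted p = 1.36e-06). MLS, malate synthase of the same cycle, was at 2.13, 2.73 and 2.72 FPKM in Col-0 and at 12.4, 11.9 and 9.65 FPKM in pif47 (log2 fold change 2.12, SE 0.17, adjusted p = 1.08e-07). PCK1, the gluconeogenic PEP carboxykinase gene, was at 108, 111 and 112 FPKM in Col-0 and at 134, 141 and 136 FPKM in pif47 (log2 fold change 0.32, adjusted p = 0.034), a call lost without any 1 of the 6 libraries (adjusted p up to 0.116). The beta-oxidation genes PED1 and MFP2 had log2 fold changes of 0.09 and 0.17 and the lipase gene SDP1 of -0.01, so that 3 of 8 genes of the list rose, and 2 did after median-of-ratios scaling. Of 8 measured ABA genes, 3 rose and 0 fell. RAB18, a dehydrin gene used as an ABA marker, was at 6.94, 9.41 and 7.77 FPKM in Col-0 and at 25.6, 22.9 and 17.7 FPKM in pif47 (log2 fold change 1.44, SE 0.15, adjusted p = 6.69e-06), and RD29B was at 0.26, 1.68 and 1.18 FPKM in Col-0 and at 11.1, 14.2 and 9.98 FPKM in pif47 (log2 fold change 3.65, SE 0.40, adjusted p = 8.76e-06). ABI5, the bZIP factor that activates LEA genes, was at 1.94, 2.3 and 2.21 FPKM in Col-0 and at 2.93, 4.65 and 3.57 FPKM in pif47 (log2 fold change 0.74, adjusted p = 0.0125), a call lost without Col-0 replicate 1 or pif47 replicate 2 (adjusted p up to 0.077). RD29A, at 18.1, 15.7 and 13.2 FPKM in Col-0 and at 15.8, 18.9 and 14.1 FPKM in pif47, and the ABA synthesis gene NCED3, at 1.16, 1.19 and 0.99 FPKM in Col-0 and at 1.02, 1.18 and 0.72 FPKM in pif47, overlapped between the genotypes.

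The other mutants differed from each other in these genes. ICL was at 2.35 to 3.82 FPKM in dvl1-1D and at 8.25 to 10.5 FPKM in bsk36, LEA18 at 8.15 to 8.77 and 17.4 to 20.5, and RD29B at 0.65 to 0.75 and 4.74 to 7.12. For these 3 genes bsk36 stood between Col-0 and pif47 with no overlap, and dvl1-1D overlapped with Col-0. Over the 64 genes that rose at least 2-fold, the median log2 fold change against Col-0 was 2.33 in pif47, 1.28 in bsk36 and 0.21 in dvl1-1D. These contrasts share the Col-0 libraries. Over all members, 956 genes were called in dvl1-1D (4.98%) and 3840 in bsk36 (20%).

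Further large rises fell outside these groups. MRD1 (AT1G53480), a gene first described as down-regulated in a methionine-overaccumulating mutant, was listed at 0 in all 3 Col-0 libraries in WL and stood at 23, 27.4 and 24.5 FPKM in pif47, 6.16 to 8.55 in bsk36 and 0 to 0.11 in dvl1-1D. In low R:FR it was again listed at 0 in Col-0 and stood at 18.6, 20.2 and 15.2 FPKM in pif47. HEI10 (AT1G53490), the locus next to it and known for its part in meiotic crossovers, was at 1.31, 2.43 and 2.67 FPKM in Col-0 and at 4.52, 4.7 and 4.84 FPKM in pif47 (log2 fold change 1.16, adjusted p = 0.00887), lost without Col-0 replicate 1 (adjusted p up to 0.0517). QQS (AT3G30720), an orphan gene that affects starch content, was at 2.27, 4.93 and 3.53 FPKM in Col-0 and at 21.7, 22.01 and 25.7 FPKM in pif47, a log2 fold change of 2.72 (SE 0.23, adjusted p = 2.84e-07). It was at 2.62 to 3.42 FPKM in dvl1-1D and 1.08 to 1.49 FPKM in bsk36, so that pif47 was above all other WL libraries. The long non-coding RNA AT1G07887 was listed at 0 in Col-0 and stood at 3.65, 2.67 and 4.69 FPKM in pif47, and AT1G04017, of the same class, was at 0, 0.04 and 0.07 FPKM in Col-0 and at 9.78, 2.03 and 2.67 FPKM in pif47. The call of AT1G04017 was lost without any 1 of the 6 libraries (adjusted p up to 0.141). BGLU19, which encodes a beta-glucosidase, was at 3.58, 5.31 and 5.68 FPKM in Col-0 and at 23.6, 24.3 and 18.02 FPKM in pif47 (log2 fold change 2.17, SE 0.22, adjusted p = 2.65e-06). DELTA-VPE, which encodes a seed coat vacuolar processing enzyme, was at 1.26, 1.63 and 1.68 FPKM in Col-0 and at 7.84, 8.02 and 6.03 FPKM in pif47 (log2 fold change 2.19, SE 0.23, adjusted p = 5.26e-06).

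A difference between pif47 and Col-0 can lie with either genotype, and the other mutants in WL show which libraries stood apart. The 3 pif47 libraries lay outside the range of the other 9 WL libraries in 11 of the 24 genes that fell at least 2-fold, and the 3 Col-0 libraries did so in 8. Over all members, pif47 lay below the other 9 in 1.27% and Col-0 above them in 1.36%. Of the 64 that rose at least 2-fold, pif47 stood apart in 39 and Col-0 in 13, beside 1.6% of all members with pif47 above and 3.58% with Col-0 below. Of all 503 genes that rose, pif47 stood apart in 102 and Col-0 in 198, and of all 241 that fell, in 102 and 69. Either genotype can stand apart only where the libraries of pif47 and Col-0 do not overlap. This held for all 88 genes past 2-fold, 500 of the 503 and 240 of the 241, beside 23.1% of all members. Shares above those of all members were thus set in part by the selection of the genes. Wall protein genes are among the 13 larger rises in which Col-0 stood apart. PRP1, which encodes a proline-rich protein, was at 4.59, 4.86 and 5.82 FPKM in Col-0 and at 11.1, 11 and 9.32 FPKM in pif47, with 8.83 to 9.62 FPKM in dvl1-1D and 9.76 to 10.7 FPKM in bsk36. The extensin gene EXT12 was at 5.94, 8.73 and 9.5 FPKM in Col-0 and at 16.4, 15.3 and 17.6 FPKM in pif47, with 13.98 to 19.4 FPKM in dvl1-1D and 11.99 to 18.1 FPKM in bsk36. The log2 fold changes in pif47 were 1.03 (adjusted p = 0.0104) and 1.04 (0.0198), the latter lost without Col-0 replicate 1 or pif47 replicate 3 (adjusted p up to 0.102). XTH26 ranged from 2.13 to 2.72 FPKM in dvl1-1D and from 2.19 to 3.49 FPKM in bsk36. In each of these 3 genes Col-0 was the lowest of the 4 genotypes.

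A further case of Col-0 standing apart was a run of neighbouring genes on chromosome 4, found after the values were seen. Between AT4G35250 and AT4G35460 lie 18 consecutive members, of which 17 fell and 0 rose in pif47, with a median log2 fold change of -0.91. HCF244, which encodes a factor for photosystem II assembly, was at 277, 301 and 289 FPKM in Col-0 and at 137, 139 and 139 FPKM in pif47 (log2 fold change -1.06, SE 0.06, adjusted p = 1.90e-10). IDH1, a mitochondrial isocitrate dehydrogenase subunit gene, was at 109, 109 and 113 FPKM in Col-0 and at 51, 51.2 and 51.4 FPKM in pif47 (log2 fold change -1.11, SE 0.07, adjusted p = 1.23e-09). CPK5, a calcium-dependent kinase gene of defense signaling, was at 73.3, 76.2 and 78.9 FPKM in Col-0 and at 41.3, 41.6 and 43.2 FPKM in pif47, and NTRB, a thioredoxin reductase gene, was at 34.9, 32.3 and 30.04 FPKM in Col-0 and at 17.6, 16.3 and 16.4 FPKM in pif47. The xylem protease gene XCP1 was at 45.9, 61.3 and 58.9 FPKM in Col-0 and at 22.7, 28.99 and 21.6 FPKM in pif47. These genes differ in their known roles, and all were about 2-fold higher in Col-0. The one gene not called was AT4G35430, at 1.55, 2.5 and 2.03 FPKM in Col-0 and at 1.02, 0 and 0.63 FPKM in pif47. In 17 of the 18 genes the Col-0 libraries were above all 9 libraries of the 3 mutants. The median log2 fold change of the run was -1.03 in dvl1-1D and -0.88 in bsk36 in WL, against the same Col-0 libraries, and it was -0.91 in pif47 in low R:FR, where both genotypes are represented by other libraries. Of the 20 members directly beside the run, 10 on either side, none was called by limma (1 at an unadjusted p under 0.05), and their median was 0.00. Over windows of 11 members, the lowest running median on chromosome 4 was -0.92, while it lay between -0.17 and -0.40 on the other nuclear chromosomes. The run held 4 of the 24 genes that fell at least 2-fold. What sets the run apart was not tested.

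**Figure D4:**
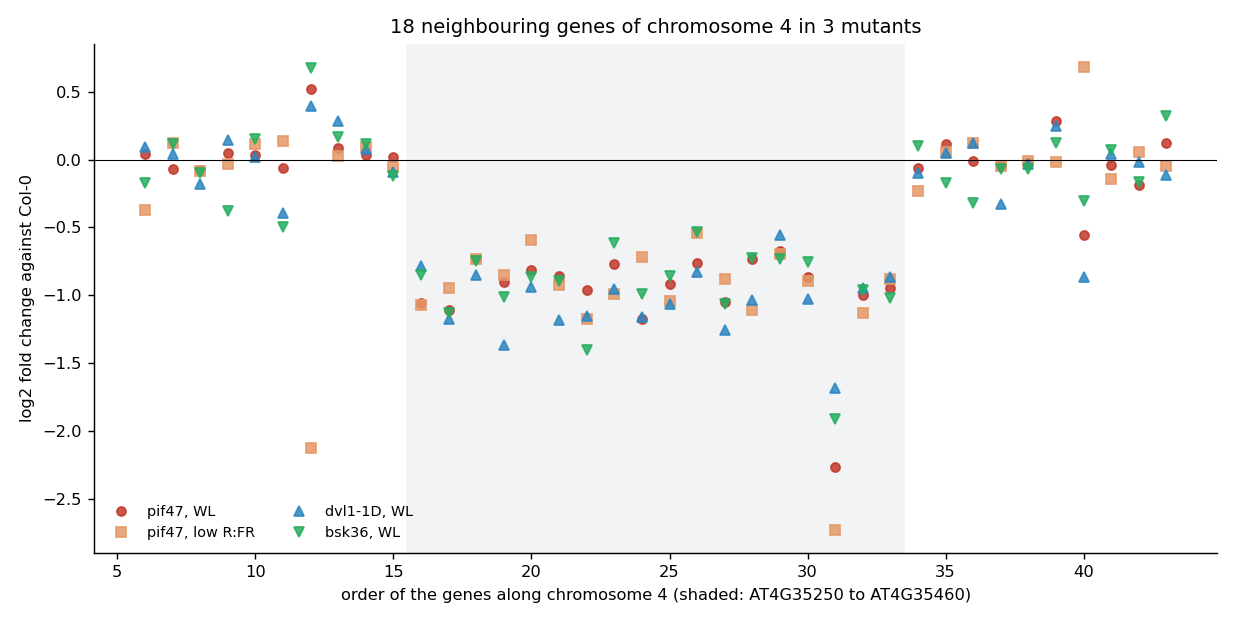
Log2 fold change against Col-0 in the same light (y axis) for the 18 members from AT4G35250 to AT4G35460 (shaded) and 10 members on either side, in their order along chromosome 4 (x axis), for pif47 in WL and in low R:FR and for dvl1-1D and bsk36 in WL. Inside the shaded run all 4 contrasts lie below 0, with medians from -1.03 to -0.88, and outside it they scatter around 0.

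The low R:FR libraries of Col-0 and pif47 are separate from those of the WL contrast and give a second measurement of the fold change. They are not separate from the calls, because all 24 libraries set the spread used in both contrasts. Of the 241 genes that fell in WL, 209 had a log2 fold change below 0 in low R:FR, where this held for 56.7% of all members below 0 in WL. Of the 503 that rose, 446 were above 0 in low R:FR, beside 67.1%. Called in the same direction in low R:FR were 148 of the 241 and 146 of the 503, and of the genes past 2-fold, 17 of 24 and 48 of 64. In low R:FR itself 2714 members were called (14.1%), with 7.32% of all members higher and 6.81% lower. Across the 744 genes called in WL, Pearson's r between the log2 fold changes was 0.79 and Spearman's rho 0.70, and across all 19209 members they were 0.33 and 0.30. Genes are not independent replicates, so these values describe likeness only. The log2 fold change of ICL was 3.44 in WL and 4.16 in low R:FR, that of M17 7.43 and 7.49, that of RD29B 3.65 and 4.06, and that of PAO2 1.42 and 0.99.

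For some genes of the auxin, shade and flowering pathways the difference was larger in low R:FR than in WL. FT had a log2 fold change of -1.05 in WL and -4.14 in low R:FR, an interaction of -3.09 (adjusted p = 7.36e-05). Its level in Col-0 was 3.21, 3.97 and 4.15 FPKM in WL and 19.4, 13 and 18.8 FPKM in low R:FR, while pif47 held 1.03, 0.5 and 1.2 FPKM in low R:FR. IAA29 had a log2 fold change of -0.85 in WL and -3.29 in low R:FR, an interaction of -2.44 (adjusted p = 4.76e-05), with 50.1, 42.9 and 45.3 FPKM in Col-0 and 4.32, 4.25 and 5.38 FPKM in pif47 in low R:FR. For PKS4, SAUR20 and RTFL17 the log2 fold changes in low R:FR were -1.17, -1.29 and -1.14, and the interaction was not called. The interaction was called for 489 members (2.55%).

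**Figure D5:**
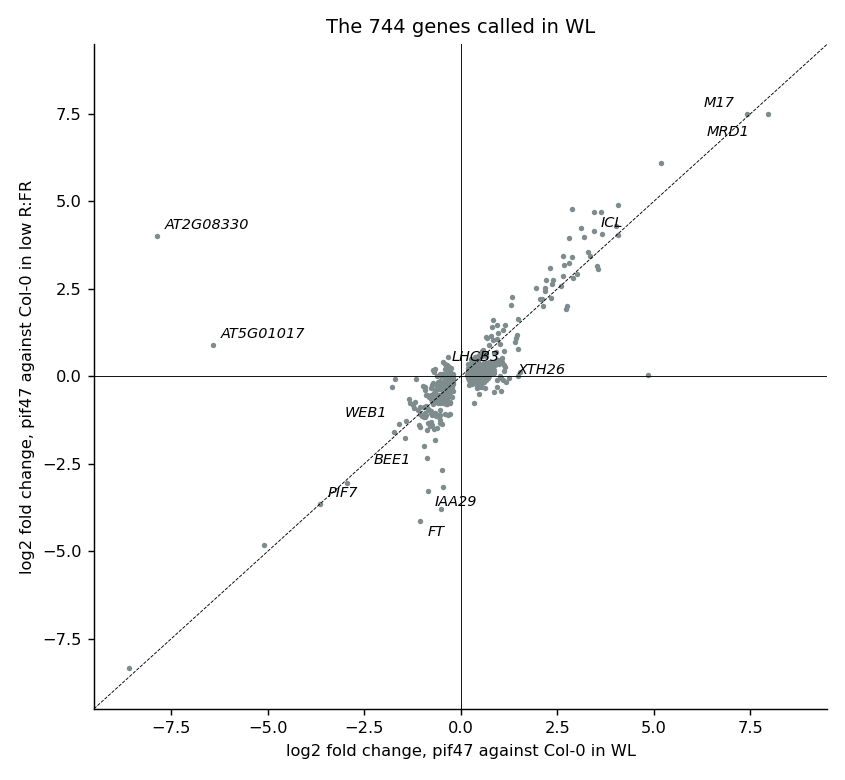
Log2 fold change of pif47 against Col-0 in low R:FR (y axis) by that in WL (x axis) for the 744 genes called in WL, with one point for each gene and the dashed line marking equal values. On this scale most points lie near the line, FT and IAA29 lie far below it, and AT2G08330 and AT5G01017 lie in the quadrant of opposite signs. The median log2 fold change of the 503 higher genes was 0.37 in WL and 0.16 in low R:FR. For the 241 lower genes it was -0.47 and -0.39.

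Many lists had no called member in WL. By limma, none was called among 13 genes of brassinosteroid synthesis and inactivation, 5 gibberellin oxidases, 7 GH3 genes, 8 auxin synthesis genes of the YUC and TAA families, 9 BSK kinase genes, 6 genes of salicylic acid defense, 9 of flavonoid and anthocyanin synthesis, 6 of sulfur deficiency, 8 of sugar starvation and 11 root markers. At an unadjusted p under 0.05 there were 2 genes each in the brassinosteroid, auxin synthesis and root lists, 1 each in the gibberellin, salicylic acid, flavonoid, sulfur and sugar lists, and 0 in the GH3 and BSK lists. Over all members 3825 of 19209 had such a p. Their median log2 fold changes lay between -0.22 for the gibberellin oxidases and 0.30 for the root markers. Of 12 jasmonate genes 1 rose, AOC2 of jasmonate synthesis, at 51.1, 52.9 and 43.3 FPKM in Col-0 and at 64.1, 80.9 and 68.9 FPKM in pif47 (log2 fold change 0.54, adjusted p = 0.019). Its call was lost without Col-0 replicate 3 or pif47 replicate 2 or 3 (adjusted p up to 0.097), after median-of-ratios scaling and with the 6 libraries alone. Of 9 genes of rapid touch and stress responses 1 fell, TCH2, which encodes a calmodulin-like protein, at 38.2, 35.5 and 42.9 FPKM in Col-0 and at 31.3, 30.96 and 32.5 FPKM in pif47 (log2 fold change -0.30, adjusted p = 0.0388). Its call was lost without Col-0 replicate 1 or 3 or pif47 replicate 1, 2 or 3 (adjusted p up to 0.135) and with the 6 libraries alone.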

How the data were processed

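Whole-seedling poly(A) RNA was sequenced in 24 libraries, 3 for each of 8 groups of genotype and light. The authors deposited FPKM with 2 decimals for 32833 genes. The submitters' processing notes name fastp, cutadapt and HISAT2 and the TAIR10 build, and how fragments were counted is not given in the sources used here. FPKM keep no read numbers, so no count test was run and no counting error could be given. The 8 columns of group means were not used.

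Genes with a mean of at least 1 FPKM over the 6 libraries compared (19209) were tested with limma 3.58.1 in R 4.3.3 on log2(FPKM + 0.1), with 8 group means, a mean-variance trend, no replicate term and 16 residual degrees of freedom. Calls needed an adjusted p (Benjamini-Hochberg) below 0.05. The code was tested on simulated data. Alternatives changed the pseudocount, filter, libraries, block, scaling, trend, threshold and replicates. The text names the 15 largest falls and 10 largest rises among called genes that changed at least 2-fold without overlap, PIF4, PIF7, up to 4 called genes of each list, and others stated as chosen after their values were seen. HEI10, BGLU19, DELTA-VPE, PRP1, EXT12, QQS, the genes named from the run on chromosome 4 and any gene of a list beyond its 4 were chosen in that way. The members and lists were chosen with earlier results of these data known. For gene names, 19145 of the members were found by locus code in RefSeq's TAIR10.1 gene table. Because that assembly is not the stated build, no coordinates were taken from it, only the order of genes. No sequences were used here.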

Additional observations from a re-analysis of the deposited data

Results flagged for a closer look

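For 20 of the named genes the difference between pif47 and Col-0 itself differed between WL and low R:FR, by limma's test of the genotype by light interaction (adjusted p under 0.05 over all members). Every interaction given here is the log2 fold change in low R:FR minus that in WL, and all genes were named for their values in WL, which are part of it. In the auxin, shade and flowering genes the difference was more negative in low R:FR, with interactions of -3.09 for FT, -2.44 for IAA29, -1.45 for FLP1, -1.03 for BEE1, -0.66 for SAUR63 and -0.65 for GASA7 (AT2G14900). Cell wall genes went both ways, with -1.29 for XTH26, -0.87 for EXPA11, -0.77 for XTH8, -0.45 for EXPA3, 0.54 for EXPA5 and 0.90 for XTH7. XTH7 was lower in pif47 in WL (-0.34) and higher in low R:FR (0.57).

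The light and clock genes of this set, and the response regulator gene ARR7, showed their difference in WL and little of it in low R:FR. The interactions were 0.55 for LHCB3, 0.40 for LHCB6, 0.31 for HEMA1, -0.61 for PRR5 and -0.31 for TOC1, and 0.88 for ARR7. Both remaining genes have erratic values. AT2G08330, with an interaction of 11.86, was at 35.8, 20.4 and 16.9 FPKM in Col-0 in WL, while in low R:FR Col-0 was listed at 0 and pif47 gave 0, 2.83 and 14.1 FPKM. AT5G01017, with an interaction of 7.29, gave 15.3, 9.49 and 4.02 FPKM in Col-0 in WL, and the low R:FR values of Col-0 were 5.59, 3.66 and 6.74 FPKM.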

How the results depend on the processing

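The 744 called genes kept the sign of their log2 fold change under every alternative that tested them. This says little about stability. In 500 of the 503 higher and 240 of the 241 lower genes the libraries did not overlap, so leaving out 1 library could not reverse the sign. The counts of calls moved. With the 6 libraries alone, 76 genes were higher and 85 lower, and with the 12 libraries of Col-0 and pif47, 117 and 128, with 298 interactions. Higher genes numbered 247 after median-of-ratios scaling and 284 after quantile normalization. Genes lower by at least 2-fold numbered 15 with a pseudocount of 1, 10 with a filter at 5 FPKM and 41 after quantile normalization, and those higher by as much 23 with that filter and 104 without a filter. Leaving out 1 library gave 151 to 604 higher and 129 to 181 lower genes, with 46 to 78 and 18 to 29 past 2-fold.

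Of 95 named genes called, 57 were called on leaving out any 1 library and 39 were lost with the 6 libraries alone, which have fewer degrees of freedom. Replicate numbers did not pair the samples, as same-numbered libraries correlated in their deviations at 0.02, -0.004 and 0.03. With a replicate block, 589 genes were called higher and 247 lower, 713 of the 836 shared with the 744. Without the run on chromosome 4, an alternative chosen after seeing the data, 713 genes were called. Depth limits genes of a few FPKM, whose counting error is unknown.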

Other observations

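A few called genes not described above were chosen after their values were seen. EEL, a bZIP factor gene of embryo maturation, was at 0.74, 0.69 and 1 FPKM in Col-0 and at 2.01, 1.52 and 2.39 FPKM in pif47, a log2 fold change of 1.18 (SE 0.26, adjusted p = 0.0162) by limma, with 1.78 to 2.77 FPKM in dvl1-1D and 1.36 to 2.59 FPKM in bsk36, so that Col-0 was lowest. Its call was lost without Col-0 replicate 1 or pif47 replicate 3 (adjusted p up to 0.0889). PDF2.1, a defensin-like gene, was at 31.9, 31.5 and 31.7 FPKM in Col-0 and at 13.7, 15.4 and 13.2 FPKM in pif47, a log2 fold change of -1.17 (SE 0.25, adjusted p = 0.0137), and its call was lost without pif47 replicate 3 (adjusted p up to 0.0614). In WL it was at 14.4 to 19.55 FPKM in dvl1-1D and 17.1 to 20.3 FPKM in bsk36, so that Col-0 was highest. In low R:FR PDF2.1 was at 9.81, 10.5 and 17.1 FPKM in Col-0 and at 13.9, 9.06 and 11.8 FPKM in pif47. TSPO, a stress-induced membrane protein gene, was at 0.5, 0.98 and 0.71 FPKM in Col-0 and at 4.34, 4.74 and 3.33 FPKM in pif47, a log2 fold change of 2.38 (SE 0.50, adjusted p = 0.0106), and its call was lost without Col-0 replicate 1 (adjusted p up to 0.0536). The Col-0 means of EEL (0.81 FPKM) and TSPO (0.73 FPKM) were under the filter, so both passed it through pif47 alone. Among the LEA genes, AT3G17520 was at 0.3, 2.18 and 1.54 FPKM in Col-0 and at 14.2, 13.7 and 9.78 FPKM in pif47 (log2 fold change 3.45, SE 0.48, adjusted p = 1.91e-04), and AT3G53040 was at 0.65, 1.8 and 1.43 FPKM in Col-0 and at 9.17, 10.5 and 7.41 FPKM in pif47 (log2 fold change 2.80, SE 0.29, adjusted p = 5.10e-06).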
